A study of Mus musculus with 9 samples.

Results

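Described here in mouse liver are 7 genes that are best known from other organs: Cib3, Vsig8, Npy, Ly6d, Sprr1a, Akr1b7 and Krt20. Each had more signal in every liver on a methionine- and choline-deficient diet without treatment than in any on a sufficient diet. For Krt20 the margin was only 1 read each in replicates 1 and 3 of these untreated livers. On the sufficient diet all but Ly6d had little or no signal, and Ly6d averaged 2.72 FPKM. The genes are 7 of the 21936 in the expression table. They were chosen by their large FPKM shifts between the groups of these same livers. Their levels and differences are therefore given here as a description, with no test. The HGPP livers came from mice on the deficient diet that were gavaged with polysaccharides of the herb Gynostemma pentaphyllum at 300 mg/kg in 0.5% carboxymethylcellulose sodium (CMC-Na). The MCD livers came from mice on the same deficient diet given CMC-Na alone, and the MCS livers from mice on the sufficient diet given CMC-Na alone. All were wild-type male C57BL/6 mice, bought at 9 weeks of age and fed the diets for 4 weeks, with 3 livers sequenced in each group. The right lobe was sampled as bulk tissue, so fewer cells of a type and less RNA per cell cannot be told apart.

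The deficient diet removes the precursors of phosphatidylcholine, which the liver needs to export fat as lipoprotein, and it is used as a model of steatohepatitis with fat storage, inflammation and fibrosis. The 7 genes come from unrelated families. Cib3 encodes a calcium- and integrin-binding protein that partners the mechanotransduction channel of hair cells, and Vsig8 an immunoglobulin-domain membrane protein known from the hair follicle. Npy encodes neuropeptide Y, a transmitter of sympathetic and hypothalamic neurons. Ly6d is a small lipid-anchored surface protein of stratified epithelia and of B lineage progenitors. Sprr1a is a small proline-rich protein that is cross-linked into the cornified envelope of squamous epithelium and is also induced in injured neurons. Krt20 is an intermediate filament keratin of gut epithelium and urothelium, and Akr1b7 an aldo-keto reductase of the vas deferens, adrenal cortex and intestine that reduces aldehydes.

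Levels are in FPKM, fragments per kilobase of exon scaled to library depth. Fragments worked back from these values were summed over the annotated genes. The sums were 13335510 to 15671591 in HGPP livers, 11476260 to 16677517 in MCD livers and 14944028 to 18882163 in MCS livers. They are inferred and are not totals of sequenced fragments. Since FPKM values turned out to be whole reads divided by gene length and depth, the reads behind each value are given as well. All 7 genes passed the filter used for testing across genes (FPKM 0.1 or above in no fewer than 3 of the 9 livers, met by 13817 genes). Log2 differences are differences of group means of log2(FPKM + 0.1), which understates the change of genes near 0. The tissue matched its label, with albumin (Alb) at 17604 to 57774 FPKM in every library.

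The genes are dispersed over the genome (GRCm38 coordinates of GENCODE vM21). Cib3 lies on the minus strand of chromosome 8 (72204335 to 72212837), Vsig8 on the plus strand of chromosome 1 (172555938 to 172563717) and Npy on the plus strand of chromosome 6 (49822710 to 49829507). Ly6d lies on the minus strand of chromosome 15 (74762056 to 74763620) and Sprr1a on the minus strand of chromosome 3 (92483952 to 92485895). Akr1b7 is on the plus strand of chromosome 6 (34412334 to 34423142) and Krt20 on the minus strand of chromosome 11 (99428403 to 99438150). All are protein coding. Only Akr1b7 has another annotated gene over its exons, the antisense Gm13857, and reads of either strand cannot be told apart here because no strand setting is given.

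Proximal promoters of 5 of the genes are shown because the genes fall into a set that was lower in every HGPP liver than in every MCD liver and a set whose HGPP and MCD livers overlapped. They are RefSeq sequences (GRCm38.p6) of 160 bases ending just before the outermost annotated start, written 5′ to 3′ on the gene's strand, with capitals at matches to 8 short motifs. The first 3 lines are of the overlapping set and the last 2 of the set lower in HGPP livers.
Sprr1a chr3:92485896-92486055: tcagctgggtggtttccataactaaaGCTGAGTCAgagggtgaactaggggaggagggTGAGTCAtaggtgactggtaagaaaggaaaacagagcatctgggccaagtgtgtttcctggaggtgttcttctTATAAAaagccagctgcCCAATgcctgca
Krt20 chr11:99438154-99438313: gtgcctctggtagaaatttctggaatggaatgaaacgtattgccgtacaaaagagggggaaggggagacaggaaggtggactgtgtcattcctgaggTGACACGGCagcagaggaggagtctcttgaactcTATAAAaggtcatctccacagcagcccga
Akr1b7 chr6:34412174-34412333: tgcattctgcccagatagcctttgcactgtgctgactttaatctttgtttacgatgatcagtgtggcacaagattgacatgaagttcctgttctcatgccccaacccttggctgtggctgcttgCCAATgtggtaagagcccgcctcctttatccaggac
Vsig8 chr1:172555778-172555937: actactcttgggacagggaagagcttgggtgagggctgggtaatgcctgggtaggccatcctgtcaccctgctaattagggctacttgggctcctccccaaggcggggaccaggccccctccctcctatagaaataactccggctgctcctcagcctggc
Npy chr6:49822550-49822709: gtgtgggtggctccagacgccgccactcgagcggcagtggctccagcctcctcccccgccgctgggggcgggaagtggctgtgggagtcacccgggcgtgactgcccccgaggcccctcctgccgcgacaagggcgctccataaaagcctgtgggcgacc

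The motifs were searched on both strands in the 250 bases before the RefSeq start. The capitals in Sprr1a hold 2 copies of the AP-1 motif TGANTCA, at bases -146 to -140 and -116 to -110 from the start, and the first of them overlaps a match on the other strand to the antioxidant response element TGACNNNGC. Krt20 holds that element once, at -63 to -55. Both promoters hold a TATAAA box. AP-1 motifs stood in 6.75% of 32851 promoters of this length, the antioxidant element in 10.2% and TATAAA in 12.4%. CCAAT stood in Sprr1a, Akr1b7 and Npy (in Npy upstream of the bases printed), and in 33.8% of all promoters. The remaining motifs had no match in these 5 windows: the cyclic AMP element TGACGTCA (1.55% of promoters), the C/EBP-ATF composite TGATGNAA (3.45%), TTCNNNGAA of STAT factors (7.02%) and the NF-kB motif (4.65%). A match is a match of letters, not a bound site. The window of Cib3 was left out because it lies inside a longer RefSeq gene model.

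Cib3 was the gene with the widest gap between the MCD and MCS livers. It had 4.81, 7.10 and 2.96 FPKM in the 3 HGPP livers, 11.8, 47.4 and 24.7 FPKM in the MCD livers, and 0.177, 0 and 0 FPKM in the MCS livers. The 3 groups did not overlap, and the HGPP livers lay between the MCD and the MCS livers. The means were 4.96 ± 2.07 FPKM in HGPP livers, 28.0 ± 18.0 FPKM in MCD livers and 0.0591 ± 0.102 FPKM in MCS livers (SD, n = 3 each). The log2 difference was 7.43 for MCD minus MCS and -2.34 for HGPP minus MCD. The MCS value rests on 7 reads, all in 1 liver, against 448 reads in the HGPP livers and 2615 in the MCD livers. With its mean, Cib3 stood above 60.8% of the tested genes in HGPP livers, 89.5% in MCD livers and 4.5% in MCS livers. Its reads came out whole only with an exon length of 2087 bases, against 2014 in the annotation, so the gene model behind its values differed from that of GENCODE vM21.

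Vsig8 had no read in any MCS liver. It had 0.438, 0.400 and 0.0678 FPKM in HGPP livers (11, 11 and 2 reads), against 0.880, 7.77 and 7.51 FPKM in MCD livers (19, 244 and 185 reads). Every HGPP liver was below every MCD liver, and MCD replicate 1 was far below the other MCD livers. The means were 0.302 ± 0.204 FPKM in HGPP livers and 5.39 ± 3.91 FPKM in MCD livers (SD, n = 3 each). The 0 reads of the MCS group allow up to 3 reads over the group, or 0.0323 FPKM. Against that floor the mean level was at least 9.36-fold higher in HGPP livers and at least 167-fold higher in MCD livers. The log2 difference of HGPP minus MCD was -3.45.

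Npy was the member whose HGPP and MCS livers overlapped. It had 0, 0.241 and 0 FPKM in HGPP livers (0, 2 and 0 reads), 1.23, 3.60 and 4.18 FPKM in MCD livers (8, 34 and 31 reads), and 0, 0.113 and 0 FPKM in MCS livers (0, 1 and 0 reads). All MCD livers stood above all others, and no difference between HGPP and MCS livers was detectable at this depth. Scaled to depth, the reads of the HGPP livers were 0.0259 times those of the MCD livers (95% counting interval 0.00308 to 0.097), and those of the MCD livers 87.5 times those of the MCS livers (15.2 to 3500). These intervals, and the floors of 3 reads, cover counting error only.

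Ly6d was the most abundant of the 7 genes. It had 98.1, 295 and 193 FPKM in HGPP livers, 68.1, 290.1 and 44.1 FPKM in MCD livers, and 2.42, 1.98 and 3.77 FPKM in MCS livers. Both groups on the deficient diet lay above all MCS livers, and MCD replicate 2 was close to the highest HGPP liver. The means were 196 ± 98.5 FPKM in HGPP livers, 134 ± 136 FPKM in MCD livers and 2.72 ± 0.935 FPKM in MCS livers (SD, n = 3 each). The ratio of means was 71.8 for HGPP over MCS and 49.2 for MCD over MCS. Ly6d was not silent on the sufficient diet, since 99 reads came from the MCS livers and its mean there was above that of 53.1% of the tested genes. In HGPP livers it was above 98.3% of them and in MCD livers above 97.7%.

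Sprr1a followed the same order at a lower level. It had 8.83, 42.1 and 28.8 FPKM in HGPP livers, 3.35, 14.0 and 3.31 FPKM in MCD livers, and 0.263, 0.238 and 0.580 FPKM in MCS livers. The HGPP livers averaged 26.6 ± 16.7 FPKM, the MCD livers 6.87 ± 6.14 FPKM and the MCS livers 0.360 ± 0.191 FPKM (SD, n = 3 each). HGPP and MCD livers overlapped only through HGPP replicate 1 and MCD replicate 2, and the log2 difference of HGPP minus MCD was 2.01. HGPP minus MCS was 5.66 and MCD minus MCS 3.65. Only 14 reads came from the 3 MCS livers, against 956 from the HGPP livers and 254 from the MCD livers.

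Akr1b7 was the most even of the genes within the HGPP group. It had 3.51, 2.29 and 2.24 FPKM in HGPP livers, 0.679, 4.53 and 0.238 FPKM in MCD livers, and 0.0826, 0.150 and 0.104 FPKM in MCS livers. The HGPP livers spanned 1.57-fold and the MCD livers 19.0-fold from lowest to highest. The means were 2.68 ± 0.718 FPKM in HGPP livers, 1.82 ± 2.36 FPKM in MCD livers and 0.112 ± 0.0343 FPKM in MCS livers (SD, n = 3 each), and the MCS livers held 7 reads in all. The log2 difference was 3.69 for HGPP minus MCS and 2.34 for MCD minus MCS.

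Krt20 was detected in every liver on the deficient diet and in none on the sufficient one. It had 0.350, 0.638 and 1.52 FPKM in HGPP livers (9, 18 and 46 reads), against 0.0452, 4.78 and 0.0396 FPKM in MCD livers (1, 154 and 1 reads). The MCD signal was therefore that of 1 liver. Against the floor of 3 reads over the MCS group (0.0315 FPKM), the mean of Krt20 was at least 26.6-fold higher in HGPP livers. The MCD mean was at least 51.6-fold higher than that floor, through MCD replicate 2 alone. Without MCD replicate 2 the MCD mean was 0.0424 FPKM, near the floor. The mean FPKM was 0.515 times as high in HGPP as in MCD livers, whereas the log2 difference of HGPP minus MCD was 0.81, so the order of these groups depends on the scale.

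**Figure D1:**
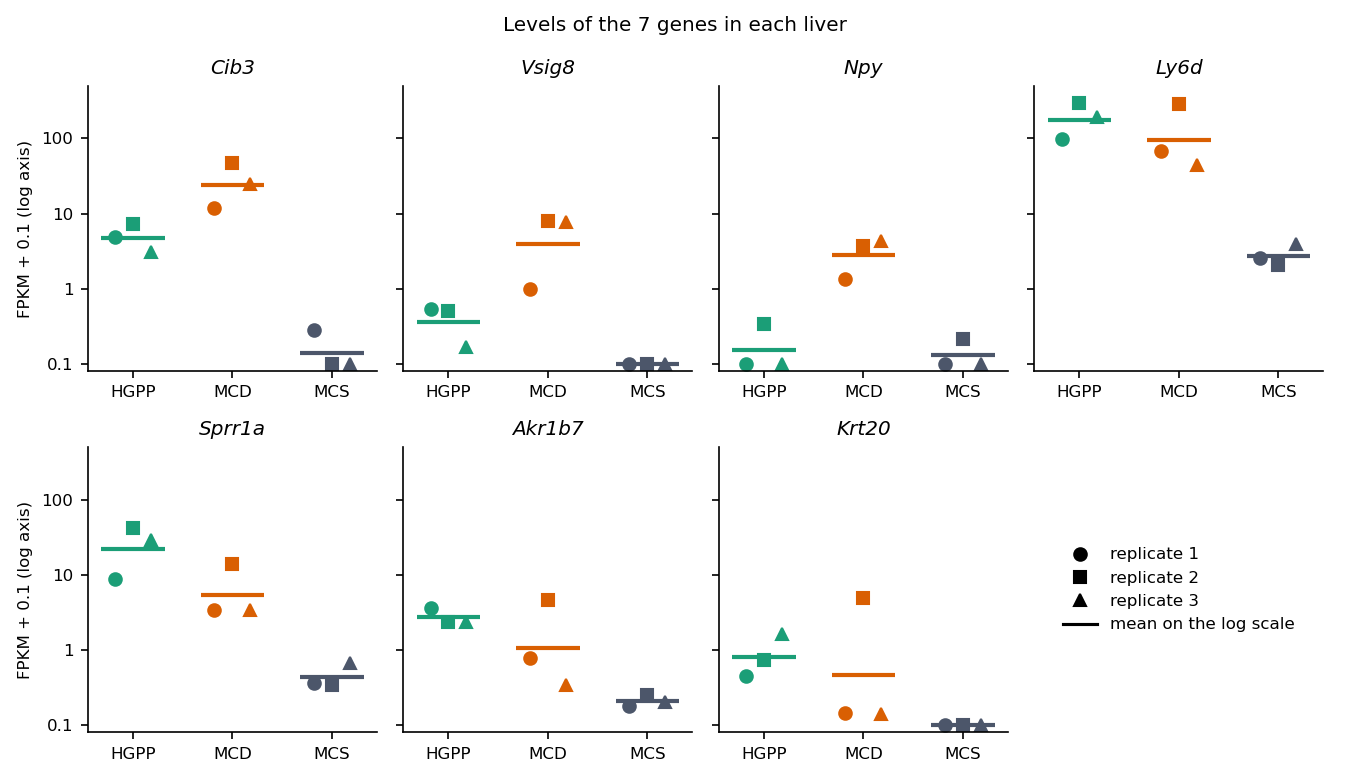
FPKM + 0.1 on a log axis for each of the 9 livers, with HGPP, MCD and MCS from left to right, a marker shape for each replicate number and a bar at the mean on the log scale. In the top row Cib3, Vsig8 and Npy stand highest in MCD, while Ly6d, Sprr1a, Akr1b7 and Krt20 have their highest log mean in HGPP, with MCD replicate 2 (square) far above the other MCD livers.

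All 7 genes had every MCD liver above every MCS liver, in keeping with how they were chosen. Of the tested genes 38.1% did so and 5.08% had every MCD liver below every MCS liver. The order of Krt20 rested on 1 read each in MCD replicates 1 and 3. For HGPP above MCS it was 6 of 7, all but Npy, against 36.7% of tested genes (4.87% for HGPP below MCS). The genes were chosen by shifts between groups of these livers, so none of these counts, with or without HGPP, is a result about them. Between the 2 groups on the deficient diet the genes divided, which is likewise a description. Cib3, Vsig8 and Npy had every HGPP liver below every MCD liver, as 11.3% of tested genes did, and none had every HGPP liver above every MCD liver, as 5.83% did. Ly6d, Sprr1a, Akr1b7 and Krt20 overlapped. Levels on the sufficient diet also divided the genes: Vsig8 and Krt20 were at 0 in all MCS livers, Cib3 and Npy had reads in 1 of them, and Ly6d, Sprr1a and Akr1b7 had reads in all 3.

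**Figure D2:**
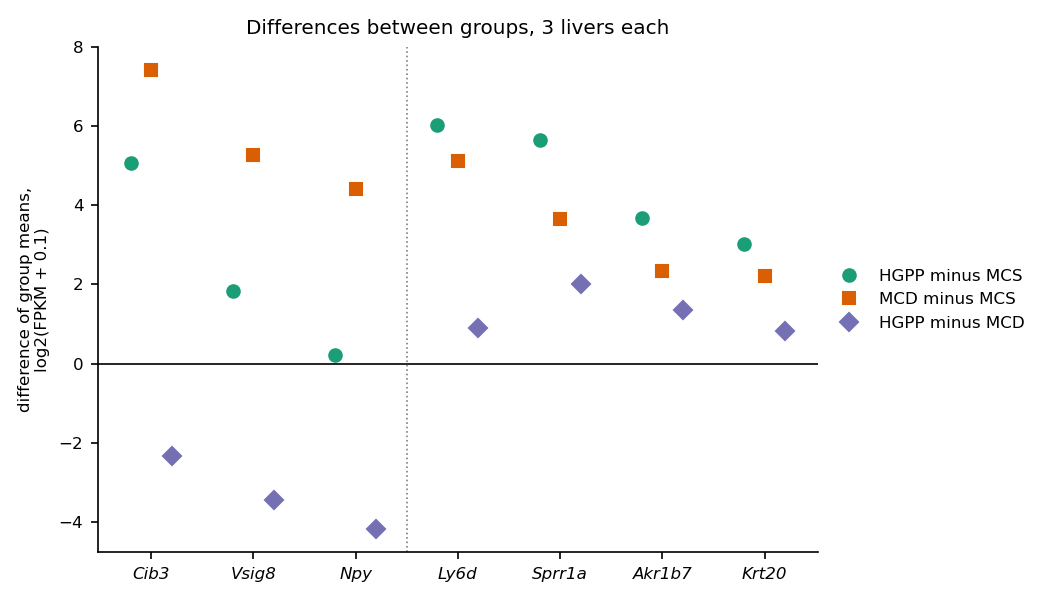
Differences of group means in log2(FPKM + 0.1) for HGPP minus MCS, MCD minus MCS and HGPP minus MCD, n = 3 livers each, with a dotted line between the 2 sets of genes. HGPP minus MCD is below 0 for Cib3 (-2.34), Vsig8 (-3.45) and Npy (-4.20) and above 0 for Ly6d (0.89), Sprr1a (2.01), Akr1b7 (1.35) and Krt20 (0.81, a sign that turned with a pseudocount of 1).

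The 3 MCD livers differed widely among themselves. MCD replicate 2 was the highest MCD liver for all of the genes but Npy, and for 51.2% of the tested genes. The lowest MCD liver was replicate 1 for Cib3, Vsig8 and Npy (45.8% of tested genes) and replicate 3 for Ly6d, Sprr1a, Akr1b7 and Krt20 (33.6%). Without MCD replicate 2 the MCD means were 56.1 FPKM for Ly6d, 3.33 FPKM for Sprr1a and 0.459 FPKM for Akr1b7. HGPP minus MCD was then 1.70 for Ly6d, 2.69 for Sprr1a, 2.41 for Akr1b7 and 2.51 for Krt20 on the log2 scale, while MCD minus MCS was 4.33 for Ly6d, 2.97 for Sprr1a, 1.29 for Akr1b7 and 0.51 for Krt20. For Cib3, Vsig8 and Npy, HGPP minus MCD was -1.85, -2.94 and -3.99 without that liver.

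Profiles over the 9 livers were compared by the root mean square (RMS) difference of log2(FPKM + 0.1), after each gene was centred on its own mean. This is a description over 9 points that share their group means. The 7 genes moved between 1.79 and 3.17 around their own mean, against a median of 0.409 for all tested genes. This wide movement follows from how the genes were chosen and is no result about them. Ly6d and Sprr1a were each other's nearest profile of all tested genes, at an RMS difference of 0.684, although they lie on different chromosomes. Vsig8 and Npy differed by 0.951, and Krt20 and Akr1b7 by 0.886. The distances did not follow the division into sets throughout. Cib3 differed from Vsig8 by 1.497 and from Ly6d by 1.572, but from Npy by 2.128. Ly6d was nearer to Cib3 than to Krt20 (1.651).

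The 3 nearest profiles were then found for each gene, first for those lower in every HGPP liver than in every MCD liver. Nearest to Cib3 were Mmp12, the macrophage elastase (0.617), Gpnmb, a glycoprotein of lipid-laden macrophages (0.679), and the galectin Lgals3 (0.746). Mmp12 had 5.43 ± 1.81 FPKM in HGPP livers, 40.4 ± 29.1 FPKM in MCD livers and 0.120 ± 0.0653 FPKM in MCS livers (SD, n = 3 each). Nearest to Vsig8 were the fatty acid-binding protein Fabp5 (0.623), the myeloid lectin Clec4d (0.662) and the elongation factor Eef1a2 (0.687). Nearest to Npy were Fabp5 (0.873), the chemokine receptor Ccr1 (0.874) and the predicted gene Gm21188 (0.891).

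Other genes were nearest to the set whose HGPP and MCD livers overlapped. Nearest to Ly6d after Sprr1a were Nupr1, a nuclear protein of the stress response (0.954), and the protease inhibitor Slpi (0.992), and nearest to Sprr1a after Ly6d were Nupr1 (0.835) and the lipid droplet protein Cidec (0.848). Akr1b7 was nearest to Fam83a (0.526), the apolipoprotein Apoa4 (0.549) and the growth factor Nrg1 (0.593). Krt20 was nearest to Tinag, a basement membrane protein of kidney tubules (0.492), Fam83a (0.852) and the actin nucleator Spire2 (0.863). Apoa4 had 173 ± 35.2 FPKM in HGPP livers, 113 ± 97.8 FPKM in MCD livers and 10.3 ± 1.03 FPKM in MCS livers (SD, n = 3 each). Tinag, like Krt20, was high in 1 MCD liver, with 0.201, 4.21 and 0.132 FPKM in the MCD livers.

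**Figure D3:**
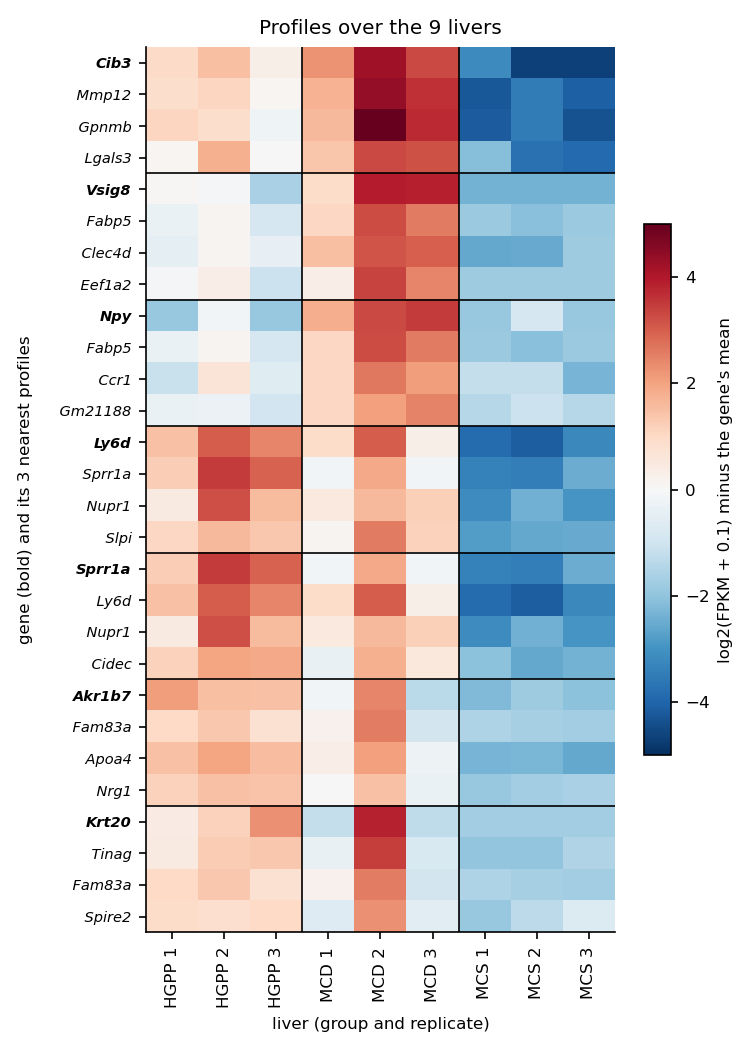
Each of the 7 genes (bold) and its 3 nearest profiles, coloured by log2(FPKM + 0.1) minus the gene's own mean, over the livers of HGPP, MCD and MCS from left to right. Cib3, Vsig8, Npy and their neighbours in profile are strongest in MCD replicates 2 and 3, whereas Ly6d, Sprr1a, Akr1b7, Krt20 and theirs are above their own mean in all HGPP livers and in MCD replicate 2.

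Markers of other cells were read beside these levels. The 8 markers of monocyte-derived macrophages (Itgax, Ccr2, Cx3cr1, Trem2, Gpnmb, Cd9, Ms4a7, Clec4e) summed to 33.5, 47.5 and 20.6 FPKM in HGPP livers, 38.1, 213 and 126 FPKM in MCD livers, and 9.53, 6.54 and 8.19 FPKM in MCS livers. By limma with Benjamini-Hochberg adjustment over all tested genes at 0.05, 5 of the 8 rose in HGPP against MCS, where 16.4% of all genes rose, 8 of 8 rose in MCD against MCS, where 19.6% rose, and 0 passed in HGPP against MCD, where 5 had an unadjusted p under 0.05 and voom also called 0. Cib3 and Vsig8, like the sum of these markers, were highest in MCD replicate 2 and lowest among the MCD livers in replicate 1. This order was not particular to macrophage markers. The cholangiocyte, stellate cell and sinusoidal endothelial sums given below had it too. Most of the macrophage sum in MCD replicate 2 was Gpnmb (125 FPKM) and Cd9 (45.0 FPKM). Gpnmb is also among the nearest profiles of Cib3, so its likeness to Cib3 is not independent of that choice. Itgax, Cx3cr1, Trem2 and Ms4a7 had the same order of MCD livers, whereas Ccr2 and Clec4e were highest in MCD replicate 3. The 7 B cell markers (Cd79a, Cd79b, Ms4a1, Pax5, Fcrla, Blk, Vpreb3) summed to 1.95, 3.56 and 2.06 FPKM in HGPP livers, 5.79, 5.21 and 19.8 FPKM in MCD livers, and 2.49, 1.51 and 0.857 FPKM in MCS livers. Their sum was highest in MCD replicate 3, where Ly6d was lowest of the MCD livers and Npy highest. Of the 6 B cell markers tested by limma, 3 rose in MCD against MCS (2 with median-of-ratios scaling), and 0 passed in HGPP against MCS, where 1 had an unadjusted p under 0.05 and voom also called 0. The 6 plasmacytoid dendritic cell markers summed to 1.62, 2.67 and 2.31 FPKM in HGPP livers, 2.90, 4.36 and 7.53 FPKM in MCD livers, and 0.953, 1.24 and 1.09 FPKM in MCS livers, so that the 3 groups did not overlap. Of the 5 tested, 4 rose in MCD against MCS (1 with median-of-ratios scaling), and 0 passed in HGPP against MCS, where 0 had an unadjusted p under 0.05 and voom also called 0. The part of these cell types in the levels of the 7 genes was not tested.

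Defining genes of some of the organs these members are known from were mostly near 0. No marker list was read for hair cells, hair follicle, hypothalamus, urothelium or vas deferens. Of 8 squamous markers, 6 stayed below 0.1 FPKM in all livers (Trp63, Krt5, Krt14, Krt13, Dsg3 and Dsc3), and Krt4 reached 0.214 FPKM in 1 liver, while the junction protein Perp ran from 33.7 to 80.3 FPKM. The list summed to 61.2 to 72.1 FPKM in HGPP livers, 33.9 to 80.4 FPKM in MCD livers and 36.2 to 48.3 FPKM in MCS livers, nearly all of it Perp. Of 8 intestinal markers, Cdx1 and Sis were at 0 and Cdx2 and Cdh17 below 0.1 FPKM in all livers. Muc2 and Vil1 were low and Fabp2 and Lgals4 were expressed, so that the list summed to 160 to 246 FPKM in HGPP livers, 201 to 240 FPKM in MCD livers and 137 to 157 FPKM in MCS livers. Of 9 genes of chromaffin cells and sympathetic neurons, 6 were at 0 in all livers (Th, Dbh, Pnmt, Slc6a2, Chga and Phox2a), Chgb and Scg2 stayed below 0.1 FPKM and Slc18a1 was present. They summed to 0.606 to 1.16 FPKM in HGPP livers, 0.381 to 1.06 FPKM in MCD livers and 0.416 to 0.631 FPKM in MCS livers. Of 7 adrenal cortex genes, Nr5a1 was at 0 and Cyp11a1, Cyp11b1, Cyp11b2 and Mc2r stayed below 0.1 FPKM, while Star and Cyp21a1 were present. They summed to 0.621 to 1.16 FPKM in HGPP livers, 0.822 to 1.41 FPKM in MCD livers and 0.617 to 1.01 FPKM in MCS livers.

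Markers of resident cells of the liver also differed between libraries. The 7 cholangiocyte markers (Krt7, Krt19, Epcam, Sox9, Spp1, Cftr, Cldn7) summed to 24.7, 97.2 and 26.3 FPKM in HGPP livers, 27.1, 153 and 82.7 FPKM in MCD livers, and 13.6, 18.4 and 23.4 FPKM in MCS livers, and most of it was Spp1. MCD replicate 2 had the highest of these sums, as it had for most of the 7 genes. Of the 6 markers tested by limma, 1 rose in HGPP against MCS, where 16.4% of all genes rose, and 2 in MCD against MCS, where 19.6% rose, and with median-of-ratios scaling both counts were 0. The 6 markers of hepatic stellate cells, which store retinoids and make collagen, summed to 66.6, 112 and 62.0 FPKM in HGPP livers, 53.1, 149.96 and 109.8 FPKM in MCD livers, and 32.8, 40.8 and 39.7 FPKM in MCS livers. Of these, 4 rose in HGPP against MCS and 4 in MCD against MCS, and those counts were 0 and 2 after median-of-ratios scaling. The 8 hepatocyte markers summed to 43751 to 51746 FPKM in HGPP livers, 28363 to 59989 FPKM in MCD livers and 59778 to 75466 FPKM in MCS livers. Most of it was Alb. By limma 1 of the 8 rose and 1 fell in HGPP against MCS, where 2.48% of all genes fell. In MCD against MCS 0 rose and 1 fell, where 2.55% fell. With median-of-ratios scaling 0 rose in either, and 0 fell in HGPP and 3 in MCD. The 6 markers of sinusoidal endothelium summed to 45.4, 75.1 and 54.2 FPKM in HGPP livers and 31.1, 65.8 and 58.2 FPKM in MCD livers. In MCS livers they summed to 41.7, 44.6 and 29.5 FPKM. The part of these cell types in the levels was not tested.

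The chromosomal neighbourhood of each gene was examined through the 3 nearest protein-coding genes on either side, 42 in all. Of these, 11 were at 0 in every liver and 24 passed the filter. By limma, 7 of the 24 rose and 0 fell in HGPP against MCS, and 11 rose and 0 fell in MCD against MCS, where 16.4% and 19.6% of all tested genes rose. In HGPP against MCD limma called 0, with 5 at an unadjusted p under 0.05, and voom called 0; of all tested genes 0.0217% were called. With median-of-ratios scaling 5 and 6 neighbours were called against MCS in place of 7 and 11. With that scaling 704 and 1231 of all 13817 tested genes rose in HGPP and in MCD against MCS. The count in HGPP against MCD was 1 without MCD replicate 1. The count of 11 was 6 without MCS replicate 1, 2 or 3 or MCD replicate 3. The median log2 difference of the 24 was 0.57 for HGPP minus MCS and 1.02 for MCD minus MCS, against 0.33 and 0.40 for all tested genes.

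Around Sprr1a the other genes were at or near 0. Sprr2k, Sprr1b, Sprr3, Sprr4 and 2310046K23Rik were at 0 in all livers, and Ivl, which encodes involucrin of the same envelope, had 0, 0.0355 and 0.464 FPKM in HGPP livers and 0 in all others. Reads shared between near-identical SPRR copies may be lost in counting, so a value of 0 is a listed 0. Around Ly6d, the family members Lypd2 and Slurp2 were at 0 in all livers, and Ly6k reached 0.0769 FPKM in 1 HGPP liver. Lynx1, a modulator of nicotinic receptors, averaged 0.788 ± 0.485 FPKM in HGPP livers, 0.651 ± 0.0704 FPKM in MCD livers and 0.233 ± 0.0727 FPKM in MCS livers (SD, n = 3 each). It rose in MCD against MCS (log2 difference 1.19 ± 0.32 SE, limma adjusted p = 0.0272), a call lost with median-of-ratios scaling (adjusted p = 0.0673). Around Krt20, Krt12 and Krt40 were at 0, Krt28 and Krt39 stayed under 0.2 FPKM, and Krt10 did not pass in either comparison with MCS. Krt23, another type I keratin, averaged 14.2 ± 5.58 FPKM in HGPP livers, 14.9 ± 10.8 FPKM in MCD livers and 2.82 ± 0.779 FPKM in MCS livers (SD, n = 3 each), and it rose in HGPP (limma adjusted p = 0.00249) and in MCD (adjusted p = 0.00875) against MCS.

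Around Akr1b7 lies a cluster of related reductases, and these rose as well. Akr1b8 averaged 7.23 ± 2.57 FPKM in HGPP livers, 13.7 ± 4.47 FPKM in MCD livers and 2.56 ± 1.19 FPKM in MCS livers (SD, n = 3 each), with limma adjusted p = 0.0279 in HGPP against MCS and 0.00369 in MCD against MCS. Akr1b3, aldose reductase, rose in both (adjusted p = 0.00945 in HGPP and 0.0359 in MCD against MCS) and Akr1b10 in MCD against MCS (adjusted p = 0.00755). The HGPP means of Akr1b8 and Akr1b10 lay below their MCD means, whereas that of Akr1b7 lay above, and these paralogs share sequence that could be split between them in counting. On the far side Cald1, the actin-binding caldesmon, rose in HGPP against MCS (adjusted p = 0.0133). The calls of Cald1 and, in HGPP, of Akr1b8 were lost with median-of-ratios scaling (adjusted p = 0.0685 and 0.114), as was that of Akr1b3 in MCD (0.104).

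Near Cib3, the tropomyosin Tpm4 averaged 12.8 ± 3.28 FPKM in HGPP livers, 13.5 ± 4.33 FPKM in MCD livers and 5.33 ± 0.519 FPKM in MCS livers (SD, n = 3 each) and rose in HGPP (limma adjusted p = 0.00537) and in MCD (adjusted p = 0.0098) against MCS. Hsh2d, an adaptor of blood cells that ends 2807 bases from Cib3, rose in MCD against MCS (log2 difference 1.40 ± 0.41 SE, limma adjusted p = 0.0365), a call lost with median-of-ratios scaling (adjusted p = 0.1). Near Vsig8, the transgelin family gene Tagln2 rose in HGPP (adjusted p = 0.00108) and in MCD (adjusted p = 0.00801) against MCS. In MCD against MCS Slamf8, a receptor of myeloid cells, rose (adjusted p = 0.0334), as did the phosphatase Dusp23 (adjusted p = 0.044), and both calls were lost with median-of-ratios scaling (adjusted p = 0.0786 and 0.302). Slamf8 had 0.559, 1.02 and 0.580 FPKM in HGPP livers, 0.537, 3.71 and 3.22 FPKM in MCD livers, and 0.464, 0.270 and 0.412 FPKM in MCS livers, so that, like Vsig8, it was high in MCD replicates 2 and 3. The nearest neighbour of Npy, Mpp6, lies 280733 bases away and did not pass. Of the genes farther out, Osbpl3, an oxysterol-binding protein, averaged 1.42 ± 0.511 FPKM in HGPP livers, 4.32 ± 4.29 FPKM in MCD livers and 0.163 ± 0.0194 FPKM in MCS livers (SD, n = 3 each) and rose in HGPP (limma adjusted p = 0.0017) and in MCD (adjusted p = 0.0043) against MCS.

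**Figure D4:**
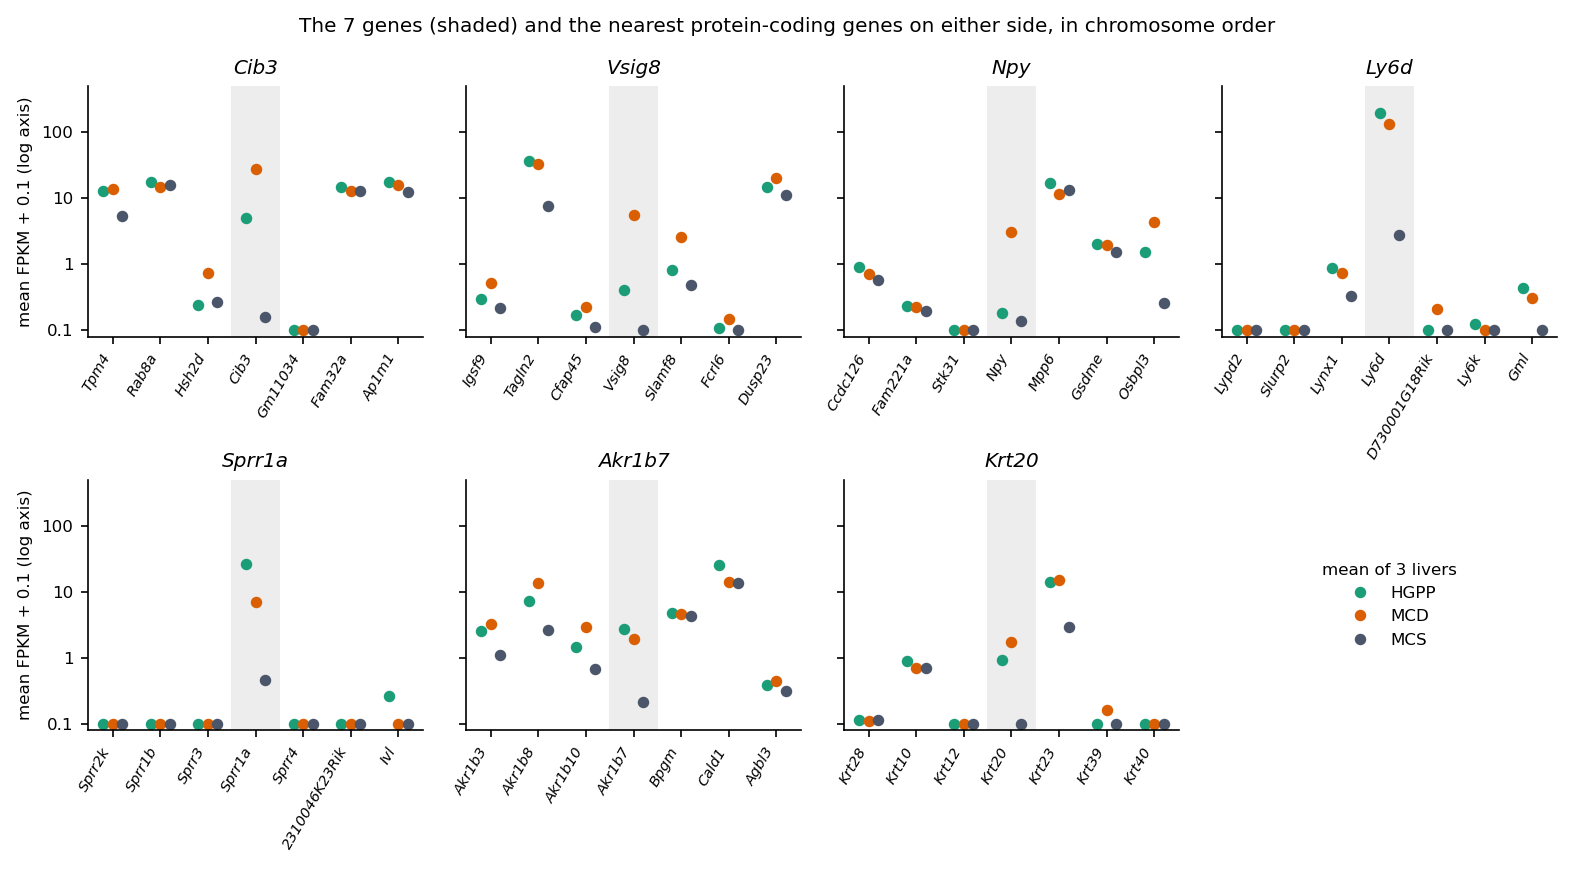
Mean FPKM + 0.1 of 3 livers on a log axis for each of the 7 genes (shaded) and the 3 protein-coding genes on either side in chromosome order, with HGPP, MCD and MCS from left to right at each gene. Of the 6 genes around Sprr1a, 5 are at 0 in all livers, as are 2 of the 6 around Ly6d and 2 of the 6 around Krt20, and Akr1b7 stands beside Akr1b8 and Akr1b10, which are higher in MCD than in MCS.

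The wider families were read through lists of relatives, 154 genes in the table, of which 55 were at 0 in every liver and 66 passed the filter. By limma, 18 rose and 4 fell in HGPP against MCS (10 and 8 with median-of-ratios scaling), and 16 rose and 7 fell in MCD against MCS (13 and 9). The shares of all tested genes were 16.4% and 2.48% in HGPP against MCS, and 19.6% and 2.55% in MCD against MCS. With median-of-ratios scaling 704 of the 13817 tested genes rose and 671 fell in HGPP against MCS, and 1231 rose and 1019 fell in MCD against MCS. Both comparisons share the MCS livers. In HGPP against MCD limma called 0 of the 66, with 10 at an unadjusted p under 0.05, and voom called 0. The median log2 difference of the relatives was 0.62 for HGPP minus MCS and 0.64 for MCD minus MCS, against 0.33 and 0.40 for all tested genes. The 0 calls in HGPP against MCD were 3 without MCD replicate 1. The 22 calls in HGPP against MCS were 14 without MCS replicate 2, 12 without MCS replicate 3, 10 without HGPP replicate 2 and 13 without HGPP replicate 3. The 23 calls in MCD against MCS were 10, 13 and 11 without MCS replicate 1, 2 and 3, 15 without MCD replicate 2 and 12 without MCD replicate 3.

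Among relatives of Cib3, Cib4 and the hair-cell channel gene Tmc2 were at 0 and Tmc1 reached 0.0212 FPKM. Cib1, the broadly expressed member, rose in HGPP against MCS (log2 difference 0.64 ± 0.17 SE, limma adjusted p = 0.0315), a call lost with median-of-ratios scaling (adjusted p = 0.372). Tmie, a partner of the hair-cell channel, had 5.40, 1.46 and 2.45 FPKM in HGPP livers, 4.33, 0.716 and 1.80 FPKM in MCD livers, and 5.59, 5.50 and 8.21 FPKM in MCS livers, and it fell in MCD against MCS (limma adjusted p = 0.0337).

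Of the Ly6/uPAR family, 10 of 25 genes passed the filter. Plaur, the urokinase receptor, had 2.00, 4.49 and 1.90 FPKM in HGPP livers, 2.66, 8.99 and 5.48 FPKM in MCD livers, and 0.404, 0.342 and 0.587 FPKM in MCS livers. It rose in HGPP (log2 difference 2.33 ± 0.36 SE, limma adjusted p = 0.00441) and in MCD (3.28 ± 0.42 SE, adjusted p = 0.00167) against MCS. Apart from Lynx1 no other family member passed in either comparison on the scale of the deposited values.

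Of 27 genes of the SPRR proteins and the cornified envelope, 15 were at 0 in every liver and 6 passed the filter. Periplakin (Ppl), a linker of the envelope to keratin filaments, rose in HGPP against MCS, with 5.32, 6.66 and 6.60 FPKM in HGPP livers and 1.37, 1.96 and 3.33 FPKM in MCS livers (limma adjusted p = 0.0107). None passed in MCD against MCS by limma or voom, with 1 at an unadjusted p under 0.05. Transglutaminase 1 (Tgm1), which cross-links the envelope, averaged 11.5 ± 4.22 FPKM in HGPP livers, 9.94 ± 3.58 FPKM in MCD livers and 9.24 ± 1.14 FPKM in MCS livers (SD, n = 3 each) and did not pass.

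Of 46 keratins, 25 were at 0 in every liver and 8 passed the filter. Of these 8, 3 rose in HGPP and in MCD against MCS, also with median-of-ratios scaling. Of all tested genes 16.4% and 19.6% rose on the scale of the deposited values. Krt8, the type II keratin of hepatocytes, averaged 555 ± 173 FPKM in HGPP livers, 272 ± 140 FPKM in MCD livers and 94.3 ± 9.25 FPKM in MCS livers (SD, n = 3 each). Its log2 difference was 2.51 ± 0.23 (SE, limma adjusted p = 0.000561) for HGPP minus MCS and 1.42 ± 0.31 (adjusted p = 0.0116) for MCD minus MCS. Its partner Krt18 averaged 469 ± 145 FPKM in HGPP livers, 330.2 ± 83.9 FPKM in MCD livers and 115 ± 12.4 FPKM in MCS livers (SD, n = 3 each, limma adjusted p = 0.00161 in HGPP and 0.00305 in MCD against MCS), and Krt23 was the other.

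Of 15 tested VSIG and junctional immunoglobulin genes, 8 rose in HGPP and 6 in MCD against MCS, and none fell. Of all tested genes 16.4% and 19.6% rose. With median-of-ratios scaling 3 and 5 of the 15 rose, beside 704 and 1231 of all 13817 tested genes. Vsir, which encodes the T cell checkpoint receptor VISTA, averaged 2.39 ± 0.612 FPKM in HGPP livers, 5.27 ± 3.52 FPKM in MCD livers and 0.890 ± 0.0973 FPKM in MCS livers (SD, n = 3 each), and passed in both comparisons (limma adjusted p = 0.01 in HGPP and 0.0135 in MCD). The adhesion gene Clmp rose in HGPP (adjusted p = 0.0301, lost with median-of-ratios scaling at 0.104) and in MCD (0.00811). Vsig10l rose in HGPP (0.0412, lost at 0.138) and in MCD (0.0133), and Vstm5 in MCD (0.0194).

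The aldo-keto reductases divided in direction. Of 17 tested, 3 rose and 4 fell in HGPP against MCS (2 and 5 with median-of-ratios scaling), and 5 rose and 6 fell in MCD against MCS (4 and 7). Of all tested genes 16.4% rose and 2.48% fell in HGPP, and 19.6% rose and 2.55% fell in MCD. Beside Akr1b8, Akr1b10 and Akr1b3, those that rose in MCD were Akr1c18, which inactivates progesterone, and the potassium channel subunit Kcnab2. Akr1c18 had 0.993, 1.02 and 2.32 FPKM in HGPP livers, 2.45, 1.79 and 0.442 FPKM in MCD livers, and 0.0877, 0.265 and 0.166 FPKM in MCS livers (limma adjusted p = 0.00514 in HGPP and 0.0141 in MCD against MCS). Those that fell in MCD against MCS were named after their values were seen. They were Akr1c6, Akr1c12, Akr1c13, Akr1c14 and Akr1c20 (limma adjusted p from 0.0201 to 0.0346), and Akr1d1, the steroid 5-beta-reductase of bile acid synthesis. Akr1d1 averaged 26.2 ± 11.2 FPKM in HGPP livers, 30.4 ± 6.75 FPKM in MCD livers and 52.1 ± 8.70 FPKM in MCS livers (SD, n = 3 each, limma adjusted p = 0.0287 in HGPP and 0.0335 in MCD against MCS).

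The system around Npy was sparse. The related peptide gene Pyy and the receptors Npy2r, Npy5r and Npy6r were at 0 in every liver, as was the prohormone convertase Pcsk2, and Pcsk1 reached 0.0311 FPKM. The receptor Npy1r averaged 0.104 ± 0.121 FPKM in HGPP livers, 0.194 ± 0.0163 FPKM in MCD livers and 0.0688 ± 0.0652 FPKM in MCS livers (SD, n = 3 each) and did not pass. Pam, which amidates the C terminus of peptides, rose in HGPP against MCS (log2 difference 0.87 ± 0.22 SE, limma adjusted p = 0.0256), a call lost with median-of-ratios scaling (adjusted p = 0.0855).

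**Figure D5:**
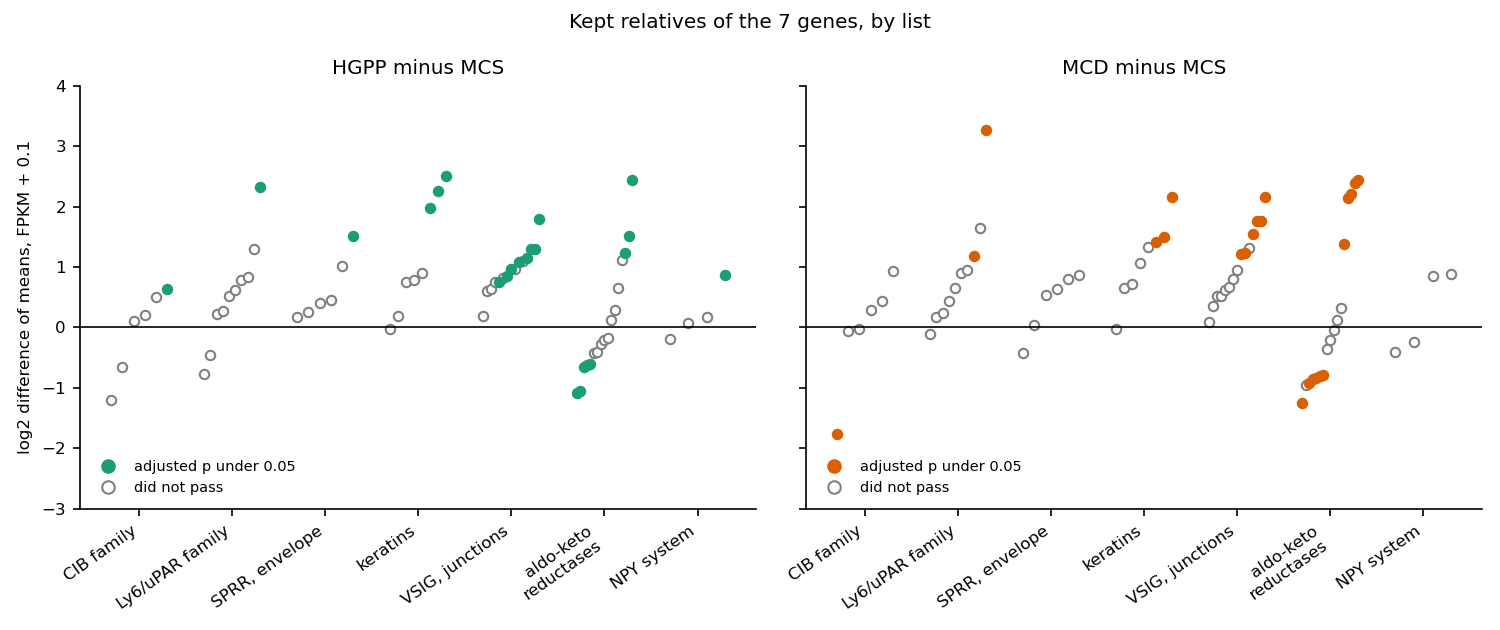
Log2 differences of means of FPKM + 0.1 for the 66 tested relatives by list, HGPP minus MCS on the left and MCD minus MCS on the right, filled where the limma adjusted p was under 0.05. Keratins and VSIG or junctional genes that passed lie above 0, and aldo-keto reductases that passed lie on both sides.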

How the data were processed

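Liver RNA from 9 mice (MCS, MCD and HGPP, 3 each) was sequenced. The authors deposited FPKM values for 21936 genes. The paper's methods name Cutadapt, HTSeq and DESeq. Trimming with fastp (0.20.1), alignment with STAR (2.7.7a) and counting with featureCounts (2.0.0) are listed in the notes of the submitters. No build was given in these sources. With exon lengths of GENCODE vM21 (GRCm38), 98.14% of 115799 values of up to 1000 reads were whole reads within 0.02, which gave the depths. An FPKM of 0.1 is 1.15 to 1.89 reads per kb.

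Pairs of groups were compared with limma 3.58.1 (R 4.3.3, trend) on log2(FPKM + 0.1) over genes with FPKM 0.1 or above in no fewer than 3 livers, with Benjamini-Hochberg adjustment over all 13817. Voom was run on the recovered reads. The code was tested on simulated data. Named genes were mainly the 7 members, called neighbours, marker genes and 3 nearest profiles per member. To these came up to 4 tested relatives per list by adjusted p in MCD against MCS. Tgm1, Kcnab2 and most of the aldo-keto reductases that fell were named outside this rule. So were some relatives and neighbours at or near 0 or not called. Values of 3 marker genes are not reported here, and their lists were summed and counted without them. Members and lists were chosen with earlier results of these data known. Other settings were pseudocounts of 1 and 0.01, other filters, median-of-ratios scaling, 1 fit over 9 libraries, a replicate block and each library left out. The methods give 3 livers per group, and each library was taken as 1 mouse. If replicates were technical, p-values would measure that spread only. Tables used pandas 2.3.3, numpy 2.4.6 and scipy 1.17.1 under Python 3.11.15.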

Additional observations from a re-analysis of the deposited data

How the results depend on the processing

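Of 189 recomputed differences of the 7 genes, 169 moved by less than 1 SD of the livers and 20 by more, all of these with another pseudocount. The sign changed in 4: HGPP minus MCD of Krt20 was -0.06 with a pseudocount of 1, -0.02 without MCD replicate 1 and -0.05 without MCD replicate 3, and HGPP minus MCS of Npy was -0.36 without HGPP replicate 2. The few reads in MCS livers limit the ratios to that group for all of the genes but Ly6d, which had 99 reads there.

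Without a filter, the genes called were 1567 in HGPP against MCS, 1795 in MCD against MCS and 0 in HGPP against MCD, in place of 2602, 3060 and 3. Relatives called were then 12 in HGPP against MCS and 10 in MCD against MCS, and neighbours 6 in MCD against MCS. Median-of-ratios scaling, which moved the median log2 difference of all genes to 0.01 (HGPP against MCS) and 0.02 (MCD against MCS), called 1375 genes in HGPP against MCS and 2250 in MCD against MCS. These were 704 higher and 671 lower in HGPP (2260 and 342 on the deposited scale), and 1231 higher and 1019 lower in MCD (2707 and 353). It called 6 neighbours in MCD against MCS. One fit over 9 libraries called 1420 genes in HGPP against MCS and 16 in HGPP against MCD, and voom 1 in HGPP against MCD.

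Leaving out 1 library gave 1025 to 2025 genes in HGPP against MCS, 1248 to 3629 in MCD against MCS and 0 to 443 in HGPP against MCD, the highest without MCD replicate 1. Relatives ran from 10 to 21, 10 to 27 and 0 to 3, and neighbours from 5 to 9, 6 to 11 and 0 to 1.

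With the replicate number as a block, limma called 1585 genes in HGPP against MCS, 1876 in MCD against MCS and 14 in HGPP against MCD. With this replicate block, relatives called were 16, 15 and 0, and neighbours 7, 8 and 0. Deviations of same-numbered livers correlated at -0.305 to 0.017, at -0.344 to -0.261 and at -0.158 to 0.302 in the 3 comparisons. The labels give same-numbered samples nothing in common but the number. These correlations, taken after centring within groups of 3 livers, cannot exclude a pairing.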
